A study of Mus musculus with 24 samples.

Results

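The change that dexamethasone (DEX), a synthetic glucocorticoid, produced in the prefrontal cortex (PFC) was described as an average over stressed and unstressed mice. All 24 of the 24 libraries of the series entered this comparison, 12 from DEX-treated and 12 from saline-treated animals, and each library came from 1 male C57BL/6 mouse aged 10 to 12 weeks. The mice belonged to 3 phenotypes, with 4 saline and 4 DEX libraries in each. Controls came from group housing, were housed individually for the days before the experiment and were not defeated, whereas animals of passive coping (PS, labelled dep1) and of active coping (AS, labelled dep2) went through 30 days of social defeat by aggressive males and were sorted afterwards by their behaviour. Each mouse received 1 injection of saline or of 2 mg/kg DEX, and tissue was taken 6 h later. Stressed mice were injected 24 h after the last encounter. The tissue was a dissected block, in which fewer cells of a type and less RNA per cell cannot be told apart.

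Glucocorticoids enter cells and bind the glucocorticoid receptor (GR, Nr3c1), which moves to the nucleus. There it activates genes that carry glucocorticoid response elements, among them its own inhibitor Fkbp5, and represses many inflammatory genes. The mineralocorticoid receptor (Nr3c2) binds the same natural hormone more tightly but DEX only weakly. In the brain GR is present in neurons, glia and the cells of blood vessels, so the response of a tissue block is a mixture of many cell types.

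The data were deposited as normalized counts, which are reads on each gene divided by 1 size factor per library. The reads behind them numbered 21121869 to 59439645 per library, with a median of 24420129. Group medians were higher in AS (34242531.5 with saline, 37876626 with DEX) than in control and PS (22869703 to 24187702). Depth did not separate the treatments: an exact two-sided permutation test within phenotypes gave p = 0.930 over 343000 arrangements. The same test gave p = 0.839 for the share of reads from mitochondrial genes, which was 5.32% ± 0.521 (SD, n = 12) with saline and 5.38% ± 0.862 with DEX. Within phenotypes the signs differed: of 22 tested mitochondrially encoded genes, 17 had a positive change in control, 0 in PS and 6 in AS. Markers of cortical tissue were present at high levels. The pyramidal neuron kinase gene Camk2a had a median of 123769 normalized counts with saline, and only 1 of 8 listed genes of choroid plexus and ependyma was in the table.

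Across the phenotypes, DEX changed 2086 of 13542 tested genes (15.4%), of which 1015 rose (7.5%) and 1071 fell (7.91%). These calls came from limma on log2(normalized count + 1) with phenotype as a block, at a Benjamini-Hochberg adjusted p under 0.1. Most changes were small. The median absolute change of the called genes was 0.25 on the log2 scale, against a median standard error of 0.06 over all tested genes. Large changes were mostly rises: 38 genes rose and 6 fell by at least 1 log2 unit, and 8 rose and 0 fell by at least 2. All 12 DEX libraries lay above all 12 saline libraries for 126 genes and below them for 35, together 1.19% of the genes tested.

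**Figure D1:**
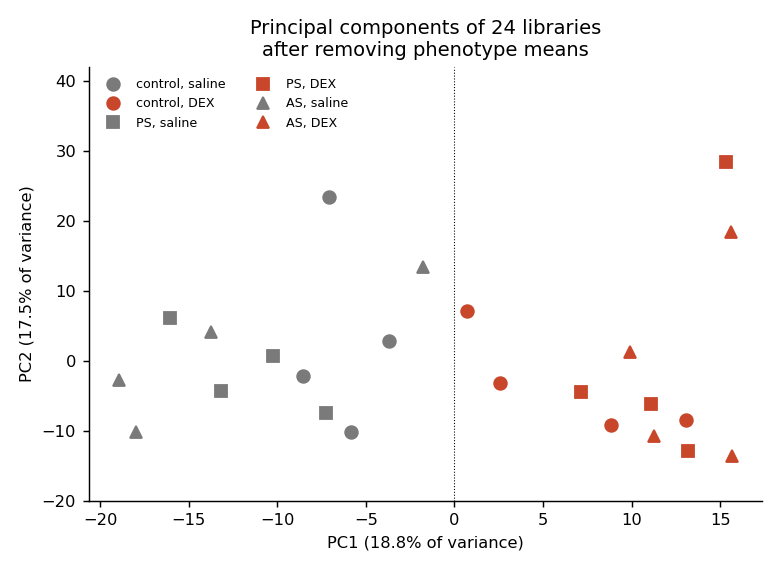
Each point is 1 library, placed by its first 2 principal components (PC1 and PC2, in arbitrary score units) after the mean of each phenotype was subtracted. The 12 saline libraries had PC1 scores of -18.9 to -1.76 and the 12 DEX libraries 0.704 to 15.7, so treatment divided them without overlap.

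After phenotype means had been subtracted, the first principal component held 18.8% of the variance and placed every saline library below 0 and every DEX library above it. The plot of principal components shows that the 4 saline controls lay between -8.52 and -3.70 on this axis and the 4 saline-treated AS mice between -18.9 and -1.76. The second component, with 17.5% of the variance, set 4 libraries apart that came from different groups (1 saline control, 1 DEX-treated PS, 1 of each treatment in AS). Without the 4 libraries that correlated least with their own groups, which were these same 4, limma called 2466 genes.

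Letters that match the palindrome bound by GR were searched for in promoters. Shown here is the surrounding sequence for 7 called genes with a change of at least 0.5 log2 units whose RefSeq promoter window (250 bases before to 50 after a transcript start, GRCm38.p6) held the relaxed palindrome GNACANNNTGTNC, with both strands covered because it is its own reverse complement. Capitals mark that match of 13 bases, or in Sgk1 the full palindrome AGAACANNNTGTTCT of 15 bases, which contains it, with 24 bases on each side.
Sgk1, chr10:21993677-21993739, plus strand, capitals from 189 bases upstream: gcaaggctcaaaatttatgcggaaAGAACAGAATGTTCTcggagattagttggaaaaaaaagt
Map3k6, chr4:133240613-133240673, plus strand, 181 bases upstream: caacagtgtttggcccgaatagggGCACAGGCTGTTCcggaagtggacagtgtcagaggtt
Kcna5, chr6:126535578-126535638, minus strand, 59 bases upstream: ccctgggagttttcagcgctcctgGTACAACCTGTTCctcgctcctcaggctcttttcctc
Suox, chr10:128673928-128673988, minus strand, 46 bases upstream: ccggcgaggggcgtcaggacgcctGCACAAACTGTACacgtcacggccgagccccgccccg
Car14, chr3:95904874-95904934, minus strand, 225 bases upstream: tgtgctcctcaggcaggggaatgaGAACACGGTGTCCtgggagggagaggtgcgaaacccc
Mt1, chr8:94178971-94179031, plus strand, 94 bases upstream: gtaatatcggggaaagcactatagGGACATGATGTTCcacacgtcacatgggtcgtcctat
Fam107a, chr14:8309861-8309921, minus strand, 120 bases upstream: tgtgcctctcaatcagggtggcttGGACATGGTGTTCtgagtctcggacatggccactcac

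All 7 genes rose. The full palindrome was in 1 of the 10022 tested genes with a promoter window, Sgk1, a kinase gene that regulates ion transport. The relaxed one was in 42 of these 10022 genes (0.419%), in 11 of 784 that rose (1.40%) and in 1 of 813 that fell (0.123%). Over all 32851 windows of the table it occurred in 0.475%. Windows were matched for 74.0% of the tested genes, under the 80% needed for a comparison of such shares, so the check is void and they are given as a description of the matched genes. A match of letters is not a measured binding site, and windows without one say nothing of sites farther away, where much GR binding occurs.

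Sgk1 ran from 1068 to 1371 normalized counts with saline (median 1223) and from 1669 to 2329 with DEX (median 2057), and rose by 0.76 ± 0.06 log2 units (SE; limma adjusted p = 4.44e-10). Map3k6, a stress-activated protein kinase gene, went from a mean of 123 ± 26.7 (SD, n = 12) to 310 ± 61.1. Kcna5, which encodes a voltage-gated potassium channel, had a median of 49.7 with saline and 115 with DEX. For Fam107a, a gene of an actin-associated protein known to respond to stress, the lowest DEX library (12225) was above the highest saline library (10740.1). The medians of Mt1, which encodes a metal-binding metallothionein, were 3079.8 and 4244. Suox (sulfite oxidase) and Car14 (a carbonic anhydrase) rose by 0.67 and 0.65 log2 units. Groups did not overlap for Sgk1, Map3k6, Suox, Mt1 and Fam107a, and overlapped for Kcna5 and Car14.

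Known targets of GR formed a list that was chosen with earlier results of these data known, so its count is a description. Of its 28 classic GR-induced genes, 26 rose, against 7.5% of all genes tested, 0 fell and 2 did not pass the test (Pdk4 and Tiparp), with a median change of 0.58 log2 units against -0.00 over all tested genes. Each of the 26 had a positive sign in control, PS and AS, and 16 of the 28 showed no overlap between the 12 DEX and the 12 saline libraries, against 1.19% of all genes. The medians in control, PS and AS were 0.66, 0.67 and 0.58, which the plot of gene lists shows side by side. Without the 4 libraries that stood apart the count was again 26.

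Fkbp5 (ENSMUSG00000024222.17, mm10 chr17:28399094-28517527), the co-chaperone that lowers hormone binding by GR, ran from 761 to 1088 normalized counts with saline (median 811) and from 2931 to 4198 with DEX (median 3606). No saline library came near a DEX library. The change was 2.06 ± 0.07 log2 units (limma adjusted p = 1.17e-17), with values of 2.26, 2.00 and 1.91 in control, PS and AS. Tsc22d3, which encodes the anti-inflammatory protein GILZ, had medians of 1213 and 2569, and it rose by 1.06 ± 0.05 without overlap. Per1, a clock gene with a known response element, rose by only 0.21 ± 0.05, and its groups overlapped. Without PS its call was lost (limma adjusted p = 0.104).

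The receptors themselves went down. Nr3c1 ran from 2666 to 3336 normalized counts with saline (median 2962) and from 1861 to 2937 with DEX (median 2221). It fell by 0.39 on the log2 scale (SE 0.06, limma adjusted p = 2.66e-05), and the groups overlapped. Nr3c2 fell by 0.30 (SE 0.05, limma adjusted p = 9.48e-05). Of the 16 genes of both receptors and their chaperones, 1 rose (Fkbp5) and 2 fell (both receptors), a share near the 15.4% of all genes. Hsp90ab1, the chaperone gene of this list with the most counts, had medians of 41912 and 42691.

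**Figure D2:**
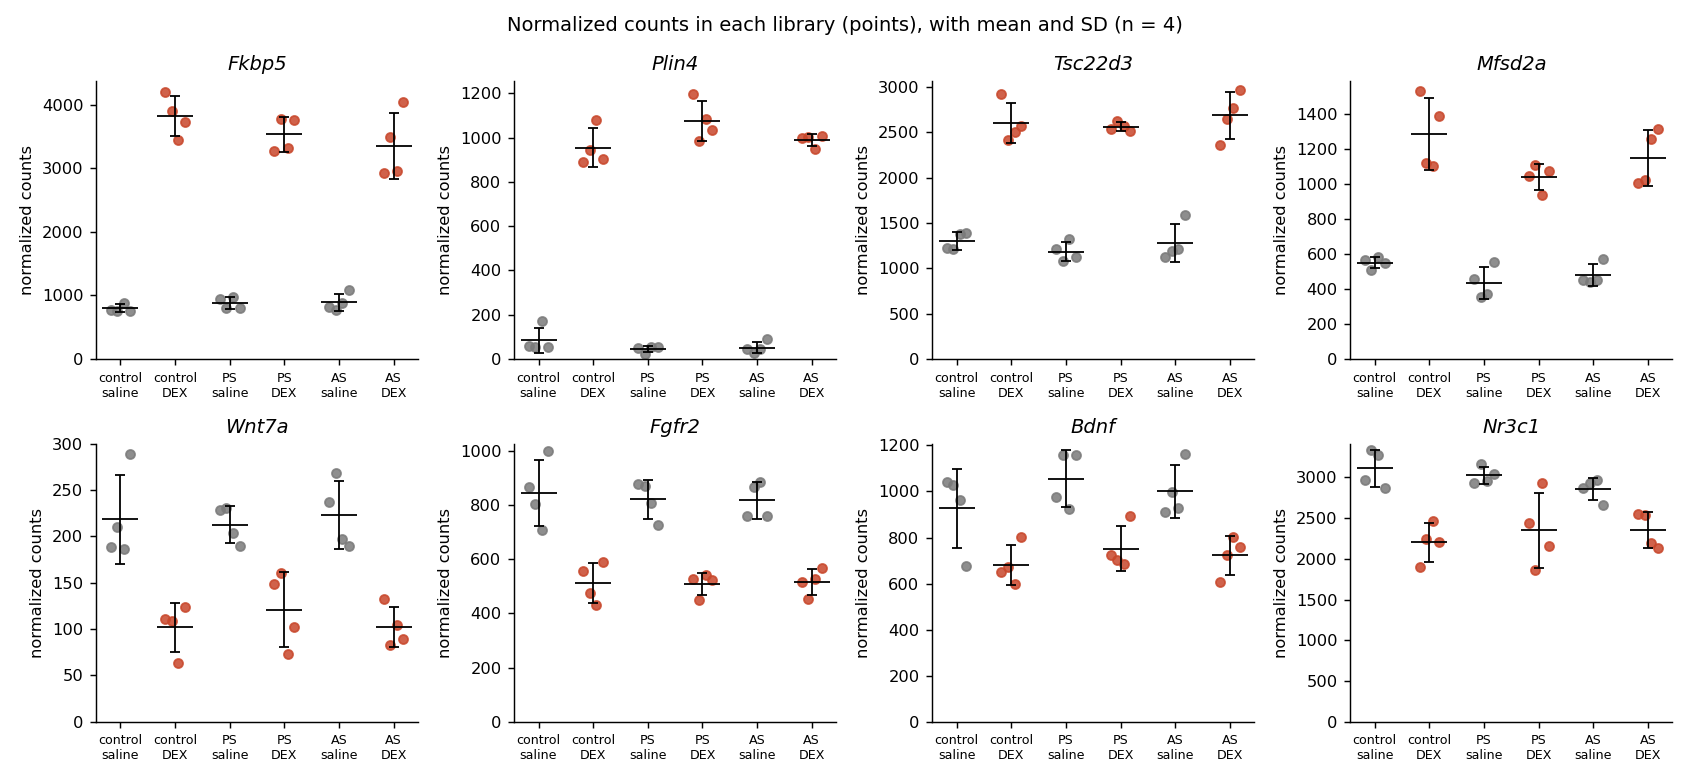
Each panel gives the normalized counts of 1 gene (linear axis from 0) in the 4 libraries of each group, with bars for the mean and SD. DEX libraries lay above all saline libraries for Fkbp5, Plin4, Tsc22d3 and Mfsd2a and below them for Wnt7a and Fgfr2, while Bdnf and Nr3c1 were lower on average with overlap.

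Setting aside genes whose mean was under 50 normalized counts, the 12 largest rises without overlap included genes of lipid metabolism and several of less known function. Plin4 (ENSMUSG00000002831.14, mm10 chr17:56100591-56109803), which encodes a coat protein of lipid droplets, ran from 24.8 to 169.7 normalized counts with saline (median 54.8) and from 889 to 1197 with DEX (median 999.8). The highest saline library, a control, was still far below the lowest DEX library. The change of 4.19 ± 0.18 log2 units was the largest of the genes named by size (limma adjusted p = 9.89e-15), and it was 3.65, 4.59 and 4.34 in control, PS and AS. Lcn2, an iron-binding protein gene of the GR list, had few reads: it ran from 0 to 6.79 normalized counts with saline and from 8.53 to 84.9 with DEX. Its size of change therefore depends on the pseudocount, but no library overlapped. Pla2g3, a secreted phospholipase gene, had medians of 117 and 418. Lrg1, a secreted glycoprotein gene of activated vessels, went from a median of 94.1 to 269, and Pkp2, which encodes the desmosomal protein plakophilin 2, from 155 to 448. Alox12b (a lipoxygenase), Castor1 (an arginine sensor upstream of mTORC1), Sult1a1 (a sulfotransferase) and Hif3a (a hypoxia-inducible factor subunit) rose by 1.37 to 1.39 log2 units. The noncoding 9330121J05Rik and the predicted gene Gm19439 rose by 3.03 and 2.37, and Smim3, a small membrane protein gene, by 1.71. These 12 genes, Fkbp5 included, were chosen for having no overlap, so that property is not a result.

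Of 26 genes of lipid storage and fatty acid use, 13 rose and 3 fell, with a median of 0.13. These were 61.5% of the list, against 15.4% of all genes tested. Pnpla2, the lipase that starts the breakdown of stored triglyceride, ran from 517 to 671 normalized counts with saline (median 586) and from 937 to 1468 with DEX (median 1193), without overlap. Mgll, the monoglyceride lipase that also degrades an endocannabinoid, had medians of 10827 and 11923, and rose by 0.17 (limma adjusted p = 0.0454). With quantile normalization this small rise did not pass the test (limma adjusted p = 0.141). The Mgll call was also lost without control, without PS and without the 4 libraries that stood apart.

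Of 31 genes of insulin, FoxO and PI3K signalling, 7 rose and 4 fell, 35.5% of the list against 15.4% of all genes tested. Both leading members restrain mTORC1. Ddit4 went from a median of 661 to 970.5, and Sesn1 from 1405 to 1989, in each case without overlap. Among 24 cholesterol genes 4 rose and 2 fell (25% against the same 15.4%), and Fdft1 (squalene synthase) rose by 0.43 ± 0.04 with 0.41, 0.46 and 0.43 in control, PS and AS. In the sphingolipid list 6 of 28 rose and 5 fell (39.3%), and with upper-quartile scaling 4 rose and 6 fell. Spns2, the exporter of sphingosine 1-phosphate, had medians of 1435 and 2526, whereas its receptor gene S1pr1 had medians of 3687 and 2489. Neither gene showed overlap, so an exporter and a receptor of the same lipid moved in opposite directions. Of 23 glucose and amino acid transporters 2 rose and 7 fell (39.1%). Of 6 genes of metal handling, Mt2 and Mt1 rose, 33.3% of the list against 15.4% of all genes tested. Mt3, the metallothionein typical of brain, was at medians of 5164 and 4992 (change 0.00 ± 0.08).

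The 12 largest falls without overlap were selected in the same way as the rises. Wnt7a, a Wnt ligand that maintains the blood-brain barrier, ran from 187 to 289 normalized counts with saline (median 207) and from 63.2 to 160.3 with DEX (median 106). Its change was -1.04 ± 0.13 log2 units (limma adjusted p = 9.74e-07), with -1.12, -0.87 and -1.13 in control, PS and AS. Ndp, which encodes norrin, another ligand of the vascular Wnt receptor, had medians of 183 and 97.7.

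Fgfr2, a receptor for fibroblast growth factors, went from a median of 837 to 524, and its changes were -0.72, -0.69 and -0.66. Fgfrl1, a related receptor without kinase activity, went from 472 to 269.8, whereas Fgfr3 rose by 0.40 ± 0.04. Gli3, a transcription factor of hedgehog signalling, fell by 0.64 and Inhba, which encodes a subunit of activin, by 0.73. Gldc, an enzyme of glycine breakdown found in astrocytes, had medians of 881 and 543. Gkn3, a gene of arterial endothelial cells, had medians of 66.7 and 30.3 and the largest fall of the genes named by size (-1.31 ± 0.17), with -0.63, -1.46 and -1.85 in the phenotypes. Plekho2 and Arhgef19, genes of signalling proteins with a pleckstrin homology or guanine exchange domain, fell by 0.84 and 0.75. The last of the 12, Tlr3 (a sensor of double-stranded RNA) and Ifit3b (an interferon-induced gene), fell by 0.63 and 0.68. The absence of overlap in these 12 genes was a condition of their choice.

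Of the transmitter receptors and neuronal genes, a subset responded. In 21 monoamine receptor genes, 4 rose and 2 fell, 28.6% against 15.4% of all genes. Adra2a, the inhibitory alpha-2A adrenergic receptor, ran from 225 to 472 normalized counts with saline (median 372) and from 524 to 879 with DEX (median 671). All DEX libraries were higher, and the change was 0.90 ± 0.10 (limma adjusted p = 1.09e-07). The serotonin receptor genes Htr2a and Htr1a rose by 0.56 ± 0.09 and 0.44 ± 0.08, each with overlap. The Htr1a change was 0.13 in control, 0.51 in PS and 0.69 in AS. Hrh1, the histamine H1 receptor, had medians of 472 and 363 with no overlap, and changes of -0.45, -0.31 and -0.60.

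Bdnf, the neurotrophin of activity-dependent plasticity, ran from 675 to 1162 normalized counts with saline (median 987) and from 599.5 to 894 with DEX (median 713), so the groups overlapped. It fell by 0.46 on the log2 scale (SE 0.07, limma adjusted p = 3.74e-05), with nearly equal changes of -0.43, -0.49 and -0.47. Of 9 neurotrophin genes it was the 1 that passed the test, 11.1% of the list and near the 15.4% of all genes. Its receptor gene Ntrk2 had a change of 0.05 ± 0.06. Slit2, an axon guidance gene, fell by 0.41.

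Of 22 immediate early genes 4 rose and 1 fell, 22.7% of the list against 15.4% of all genes tested. Arc, which encodes a synaptic regulator of plasticity, went from a median of 999 to 1805, with changes of 0.37, 1.33 and 0.79. Nptx2, a synaptic pentraxin gene induced by activity, fell from a median of 1689 to 1204. Among 69 potassium channel subunits 7 rose and 9 fell, 23.2% of the list against 15.4% of all genes tested. Kcng2, a modifying subunit, had medians of 219 and 317. Of 14 GABA receptor subunits 0 rose and 2 fell, 14.3% of the list and so near the background. One of them was Gabrd (-0.29 ± 0.05), the delta subunit of extrasynaptic receptors. Of 24 glutamate receptor subunits 2 rose and 4 fell (25%), with Grm3 at -0.24 and Grik4 at 0.22, calls that were both lost without PS. The Grik4 call was also lost without control, and over the alternatives its change went down to 0.12. Of 23 interneuron genes 1 rose (Lhx6, by 0.28) and 0 fell, 4.35% of the list and below the 15.4% of all genes tested. Pyramidal genes gave 2 rises and 2 falls of 13 (30.8%). Of 5 striatal genes 3 rose and 0 fell, 60% of the list where 7.5% of all genes tested rose. Without AS the call of the striatal gene Ppp1r1b was lost (limma adjusted p = 0.115). Pcdh20, 1 of 2 protocadherins of 51 to pass the test (3.92%, below the 15.4% of all genes), fell by 0.52.

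Of 21 core clock genes 5 rose and 2 fell (33.3% against 15.4% of all genes tested), with Ciart at 0.34 and Dbp at -0.33. With upper-quartile scaling 3 clock genes rose and 2 fell. Lists of housekeeping functions gave few calls or none: 0 of 77 cytosolic ribosomal proteins, 0 of 80 nuclear respiratory chain subunits and 1 of 22 mitochondrially encoded genes (mt-Nd4l, which fell by 0.39 and was not called without control) passed the test.

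**Figure D3:**
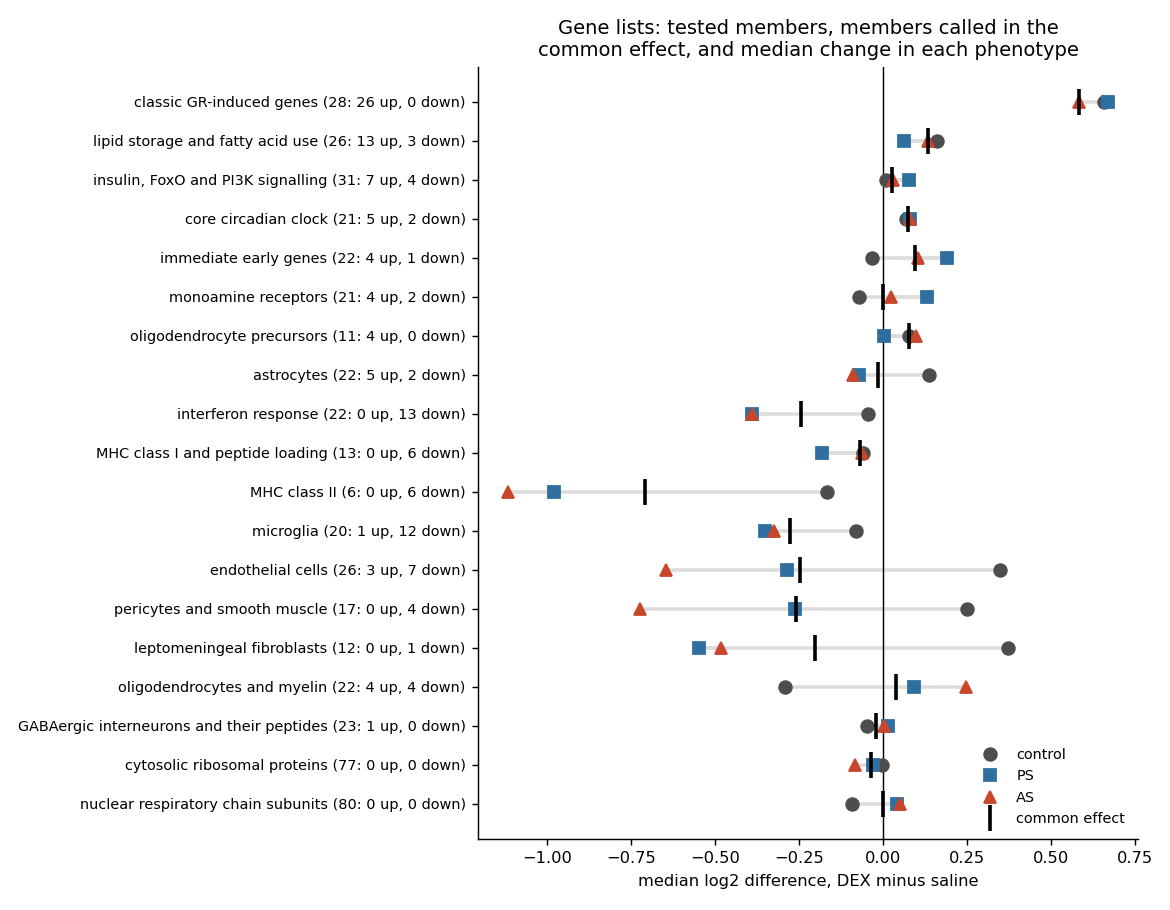
For each gene list, the symbols give the median log2 difference (DEX minus saline) of its tested members in control, PS and AS, and the black mark the median of the common effect. Numbers in brackets are the members tested and the members called. Medians of the GR-induced list lay together at 0.58 and above, while those of the endothelial, pericyte and leptomeningeal lists were above 0 in control and below 0 in PS and AS.

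How far the response was common was examined with libraries that had not chosen the genes. The DEX comparisons within control, PS and AS share no library, so genes called in 1 pair of phenotypes could be read in the remaining one. With PS left out, 1178 genes were called and 95.8% of them had the same sign in PS, against 63.0% of all tested genes. With AS left out the share was 92.6% of 1371, against 60.9%. With control left out it was 69.7% of 2189 genes called in PS and AS, against 52.0% of all genes. Of these, 420 were also called in control with the same sign and 14 with the opposite sign. The corresponding numbers were 545 and 0 for PS and 407 and 0 for AS. Control therefore had the lowest share of the 3, and over single libraries left out it ran from 62.1% to 76.8%, below the lowest value of the other phenotypes (89.1%). No test of the difference between these shares was made.

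**Figure D4:**
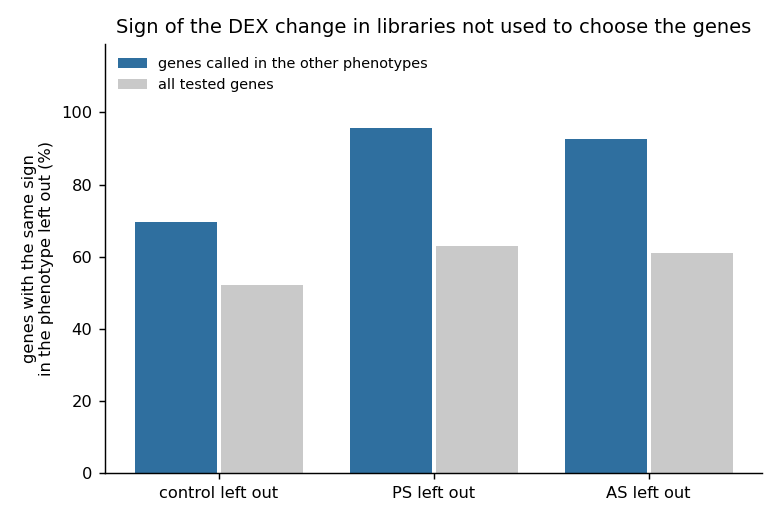
Bars give the percentage of genes with the same sign of the DEX change in the phenotype left out, for genes called in the other phenotypes (dark) and for all tested genes (light). The dark bars are at 69.7% for control, 95.8% for PS and 92.6% for AS.

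In the common effect as a whole, 1950 of the 2086 called genes (93.5%) had 1 sign in all phenotypes, which the call itself favours, against 36.2% of all tested genes. As contrasts of 1 limma model over all 24 libraries, with a shared estimate of the spread, DEX gave 915 called genes in control (6.76%), 767 in PS (5.66%) and 1262 in AS (9.32%). Fitted on the 8 libraries of each phenotype, as for the sign check, the counts were 799, 847 and 784. The order of the phenotypes differed between these fits, so none is read from them. Of the common calls, 279 were called in all 3 phenotypes by the contrasts of the shared model and 684 in none. By the same contrasts, only Mybpc1 was called in all 3 without a common call, at -0.30 in control, 0.41 in PS and 0.35 in AS. It encodes a myosin-binding protein.

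The F test of the difference between the 3 responses called 4 genes (0.0295%): Mybpc1 and the pseudogenes Rpl34-ps1, Gm13340 and Gm8129. By unadjusted p under 0.05 it gave 1438 genes, 10.6% of those tested and 15.2% of those called in the common effect. In the control saline group, Gm13340 was at 458, 1037, 1212 and 1736 normalized counts, and the other 20 libraries lay between 160.3 and 453. The high values were thus those of saline controls. Reads of a pseudogene and of its near-identical source cannot be assigned with certainty. On recovered reads edgeR called 9 genes and DESeq2 225, and without 1 DEX-treated control (mouse 112) limma called 169.

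Blood vessel genes had different signs in different phenotypes. Of 26 endothelial genes 3 rose and 7 fell in the common effect, with a median of -0.25, and these calls were 38.5% of the list against 15.4% of all genes. Within phenotypes 23 of 26 had a positive change in control, 5 in PS and 1 in AS. An unadjusted F test p under 0.05 was found for 22, against 10.6% of all genes tested, although 0 passed adjustment. Without 1 DEX-treated control (mouse 101) the count with such an unadjusted p was 14. The medians were 0.35, -0.29 and -0.65. Tek, the angiopoietin receptor, fell by 0.79 (SE 0.16) with -0.36, -0.78 and -1.25. Slc2a1, the glucose transporter of the barrier, rose by 0.41 with 0.82, 0.44 and -0.02, and without control it was at 0.21 and not called (limma adjusted p = 0.265).

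Mfsd2a, the barrier transporter of docosahexaenoic acid that suppresses transcytosis, was an exception to this spread. It ran from 355 to 580.5 normalized counts with saline (median 483) and from 935 to 1529 with DEX (median 1107). The groups did not overlap. Its changes were 1.21, 1.28 and 1.26 in control, PS and AS, for a common rise of 1.25 ± 0.07 (limma adjusted p = 1.12e-12). Slc38a5, a glutamine transporter gene of vessels, moved the other way, from a median of 62.3 to 27.2, with -0.95, -1.31 and -1.59.

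Other vascular and border lists were described in the same way, and no gene of them passed the adjusted F test. Pericyte and smooth muscle genes gave 0 rises and 4 falls of 17 (23.5% against 15.4% of all genes), with medians of 0.25, -0.26 and -0.72 in control, PS and AS. The melanoma cell adhesion molecule Mcam, a pericyte and smooth muscle gene, fell in common (-0.73 ± 0.09, and -0.75, -0.57 and -0.88). Leptomeningeal genes had positive changes for 11 of 12 in control and for 0 in PS and AS. In common 1 fell (Slc22a6), 8.33% of the list and below the 15.4% of all genes. The Slc22a6 call was lost when any of several single libraries was left out. Of 15 VEGF, angiopoietin and endothelin genes 1 rose and 6 fell (46.7%), and 9 members were below 0 in control, 13 in PS and 14 in AS. Flt1, a VEGF receptor, was at -0.45 in common, with -0.00, -0.50 and -0.85, and its call was lost without PS (limma adjusted p = 0.136) and without AS (-0.25, adjusted p = 0.464). Collagens, laminins and basement membrane genes gave 2 rises and 6 falls of 23 (34.8%), led by Itga6 at -0.44. The Notch pathway gave 1 rise and 4 falls of 15, or 33.3%. Notch4 rose by 0.63 and Jag1, a ligand gene, fell by 0.59. Without AS, Jag1 was at -0.38 and not called (limma adjusted p = 0.127). Blood genes gave 0 calls of 5, with all 5 above 0 in control and all 5 below 0 in PS and AS.

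Summed normalized counts of the 26 endothelial genes, of which Slc2a1 made up 17.2%, were 17510 ± 2327 (SD, n = 4) in saline controls and 22967 ± 3441 in DEX-treated controls. In PS they were 16928 ± 2280.2 and 15924 ± 3934, and in AS 18273 ± 3436 and 13346 ± 2328. The groups overlapped in control and in AS. The lowest DEX-treated control (19174) was below the highest saline control (20286). In AS the highest DEX library (16829.1) was above the lowest saline library (14028.5). The leptomeningeal sum, 83.1% of which was Ptgds, was 30821 ± 5474 and 44321 ± 9297 in controls. In AS it was 44247 ± 5468 and 32637 ± 8809. The part of vessel and meningeal content of the blocks in these changes was not tested.

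**Figure D5:**
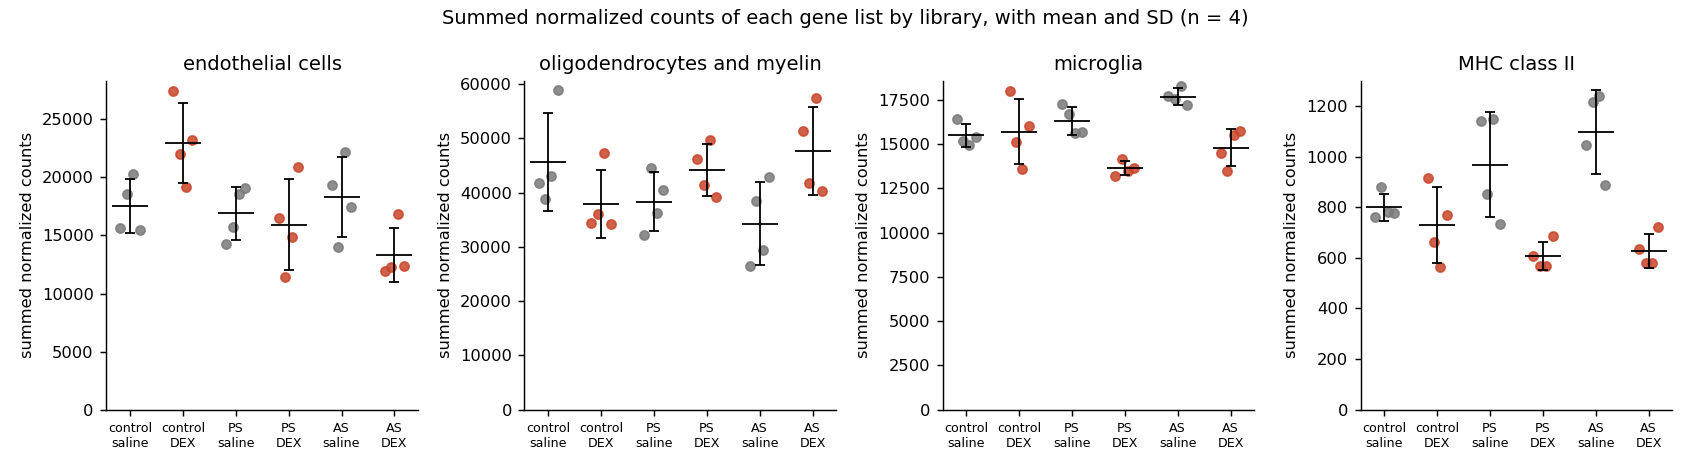
Each panel gives the summed normalized counts of 1 gene list (linear axis from 0) by library, with bars for the mean and SD of 4 libraries. With DEX, the endothelial sum was on average higher in control and lower in AS, and the myelin sum lower in control and higher in AS, all with overlap. The MHC class II sum was lower on average in each phenotype.

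Of 22 oligodendrocyte and myelin genes 4 rose and 4 fell (36.4% against 15.4% of all genes), and 20 had a negative change in control, 8 in PS and 4 in AS. The medians were -0.29, 0.09 and 0.25, and 0 of the 22 passed the adjusted F test. Mbp, the myelin basic protein gene and 33.2% of the summed level, had changes of -0.29, 0.31 and 0.50 and no common call. In contrast, Opalin and Aspa, both genes of mature oligodendrocytes, fell in common by 0.80 and 0.69 and had negative values in all phenotypes. The sum over the list was 45656 ± 9044 and 37959 ± 6228 in controls and 34287 ± 7621 and 47689 ± 8093 in AS, with overlap in both. Whether the amount of white matter in the block differed was not tested.

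Oligodendrocyte precursor genes gave 4 rises and 0 falls of 11, or 36.4%, where 7.5% of all genes rose. Neu4, a sialidase gene, went from a median of 196 to 276 without overlap. Of 22 astrocyte genes 5 rose and 2 fell (31.8% against 15.4%), and 20 had a positive change in control against 8 in PS and 7 in AS. The gap junction gene Gjb6 went from 1395 to 2098 and the growth factor receptor gene Fgfr3 from 2963 to 3873, both without overlap, whereas the glutamate transporter gene Slc1a2, the astrocyte gene with the most counts, changed by -0.04 ± 0.08.

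Most genes of the microglial and MHC class II lists fell, as did 13 of 22 interferon genes. The medians of these lists were farther from 0 in stressed mice than in controls. Of all genes tested 7.91% fell. Of 20 microglial genes 12 fell and 1 rose (median -0.28, and -0.08, -0.35 and -0.33 in control, PS and AS). Cx3cr1, the fractalkine receptor, ran from 1075 to 1568 normalized counts with saline (median 1311) and from 676 to 1152 with DEX (median 862), and the overlap came from 1 DEX-treated control above 1 saline control and 1 saline-treated AS mouse. Its changes were -0.27, -0.83 and -0.73 (limma F test adjusted p = 0.254). Aif1, which encodes the marker Iba1, had more even changes of -0.66, -0.90 and -0.71. The summed level of the list was 15493 ± 648 with saline and 15687 ± 1842 with DEX in controls. It was 16315 ± 795 and 13629 ± 401 in PS and 17681 ± 465 and 14790 ± 1039 in AS, and only the stressed groups were without overlap.

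Of 7 listed MHC class II genes, which present antigen, 6 could be tested and these 6 fell, where 7.91% of all genes did, with a median of -0.71 and medians of -0.17, -0.98 and -1.12 in the phenotypes. H2-Aa ran from 57.8 to 159 normalized counts with saline (median 81.8) and from 27.6 to 91.4 with DEX (median 44.6). The contrasts of the shared model called 6.76%, 5.66% and 9.32% of all genes tested in control, PS and AS. By these contrasts 0 of the 6 class II genes were called in controls, 4 in PS and 5 in AS. Their summed level was 799 ± 54.1 and 729 ± 151 in controls, 968 ± 208 and 608 ± 55.4 in PS, and 1098 ± 165 and 628 ± 66.8 in AS. DEX and saline libraries did not overlap in PS or AS and overlapped in controls. The saline means were higher in stressed mice, while the DEX values of the 3 phenotypes overlapped.

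Of 13 class I genes 6 fell and 0 rose, again where 7.91% of all genes fell, led by H2-Q4, a member of a family of near-identical genes whose counts are uncertain and whose call was lost without AS (-0.46, limma adjusted p = 0.168), and by Tap2 (-0.46), the peptide transporter. Of 22 interferon response genes 13 fell and 0 rose (59.1% against 7.91%), with a median of -0.25 and -0.04, -0.39 and -0.39 in control, PS and AS. The guanylate-binding protein genes Gbp2 and Gbp3 had common changes of -1.31 ± 0.22 and -0.87 ± 0.14. The Gbp3 values were -0.24, -1.22 and -1.15. With quantile normalization 11 interferon genes fell, and without the 4 libraries that stood apart 8 did. No gene of the interferon, class I, class II or microglial lists passed the adjusted F test of a difference between phenotypes.

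Of 10 listed border macrophage genes 5 were tested, of which 1 rose and 2 fell (60% against 15.4% of all genes). Pf4 fell by 1.39 ± 0.27 and Cbr2, named after its value was seen, by 0.70, whereas Lyve1, a hyaluronan receptor gene of perivascular macrophages, rose by 0.85 ± 0.15. The 4 DEX-treated controls had 95.1 to 108 normalized counts of Lyve1 against 31.0 to 38.5 in saline controls, and the phenotype values were 1.55, 0.73 and 0.27. Among 11 NF-kappaB genes 2 rose and 1 fell, 27.3% of the list against 15.4% of all genes tested. Nfkbia, which encodes the inhibitor IkB-alpha, rose by 0.39, and the subunit gene Relb fell by 0.39 (adjusted p = 0.104 by limma without AS). Of 17 phosphatase and Sprouty genes that restrain MAPK signalling 3 rose and 1 fell (23.5%), with Dusp5 at 0.45 (0.18, 0.77 and 0.41 in control, PS and AS) and Dusp1 at 0.29 (0.07, 0.56 and 0.26). Without PS, Dusp5 was at 0.30 and Dusp1 at 0.16, and neither was called (limma adjusted p = 0.294 and 0.440). Complement genes gave 1 rise and 1 fall of 12, or 16.7%, and the call of the rise (Cd59a) was lost when any of several single libraries was left out. Heat shock genes gave 3 rises and 0 falls of 20, or 15%. Hspb8 had a common value of 0.37, with 0.82, 0.24 and 0.04 in control, PS and AS, and without control it was 0.14 and not called (limma adjusted p = 0.427). The complement and heat shock shares were near the 15.4% of all genes.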

How the data were processed

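Bulk poly(A) RNA-seq of the PFC was read for 24 mice in 6 groups of 4. Per the labels and the study's methods, the authors trimmed reads with fastp 0.20.1, aligned them to mm10 (GRCm38) with HISAT2 2.2.1 and assigned them to genes of the GENCODE vM22 annotation with featureCounts of Subread 2.0. The table used here holds a signal as deposited: per gene and library, reads after division by the size factor from the authors' DESeq2 run. The authors' own fold changes, with their p-values, were not used; gene positions were taken from the same table. All values were whole multiples of 1 read (tolerance 0.01 read), and the reads recovered this way gave the depth. Precision was lowest for low genes and the shallowest libraries.

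A mean of 10 or more over the libraries was asked of a gene, which left 13542 of 14074 for testing with limma 3.58.1 in R 4.3.3 (trended eBayes) on log2(value + 1), with phenotype as a block. A change is therefore on the log2(value + 1) scale and understates that of low genes. The difference between phenotypes was an F test over 6 group means. On simulated counts (13542 genes, 200 changed by the common effect), limma recovered 94.4% of changes of 0.5 and 100% of changes of 1. Its false calls were 3.94%. With changes in AS alone, the F test recovered 54.9% and 82.7%, with 9.27% false calls. These rates describe the simulated counts. Whether they hold for the measured libraries was not tested.

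Named genes were the 12 largest rises and falls among called genes with a mean of at least 50 and no overlap, 6 treatment checks, the 2 most changed called members and the most abundant member of each list, the 6 smallest F test p-values and 10 genes the study discusses. Genes named for a promoter match and the uncalled members of the GR list were chosen after their values were seen. The members and lists were chosen with earlier results of these data known. Each mouse gave 1 library. Mice were kept in groups before the experiment, and which of them shared a cage or a day was not used here, so p-values measure the spread between these animals. Alternatives included edgeR 4.0.16 and DESeq2 1.42.0 on recovered reads. Some genes that the naming rule selects are not reported here.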

Additional observations from a re-analysis of the deposited data

Results flagged for a closer look

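In groups of 4 libraries, 186 sets of values were examined for a library far from the others, and 8 stood out, where chance flags about 1 in 20. In saline controls, 1 mouse had 888 normalized counts of Fkbp5 against 773 for the nearest. In DEX-treated AS mice, 1 library had 453 counts of Gm13340 against 242, and the same library (mouse 60) had the endothelial sum of 16829 against 12357. In saline-treated AS mice, 1 library had 42.9 counts of Gm8129 against 26.1. In DEX-treated controls, Rpl17-ps8 was at 12.8 against 6.02 in 1 library, and the myelin sum was at 47218 against 36042 in mouse 112. In saline-treated PS mice, 1 library had 59439645 reads against 26195067. In saline controls, the interferon sum was at 4850 in 1 library against 5439.

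The response to DEX differed between phenotypes by the limma F test for 4 genes. The adjusted p was 0.0248 for Rpl34-ps1, with changes of -2.36, -0.51 and 0.81 in control, PS and AS. It was also 0.0248 for Gm13340, with -2.07, -0.32 and 0.34, and for Gm8129, with -1.75, -0.08 and 0.18. For Mybpc1 it was 0.0591.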

How the results depend on the processing

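The common effect held its size under most settings. The genes called numbered 2093 with a pseudocount of 8, 2166 with quantile normalization, 2128 with upper-quartile scaling, 2096 with edgeR and 2235 with DESeq2, against 2086. The split by direction moved with the scaling: 894 rose and 1234 fell with upper-quartile scaling, and 1101 rose and 1065 fell with quantile normalization. On simulated counts DESeq2 gave 13.3% false calls. With 8 libraries of 1 phenotype left out, the calls numbered 1178 without PS (612 rose and 566 fell), 1371 without AS (597 fell) and 2189 without control, and the cause was not tested. Leaving out 1 library at a time gave 1891 to 2347 genes called. The number of genes differing between phenotypes was unstable: 4 became 7 with a pseudocount of 8, 1 with a mean of at least 100, 9 with edgeR and 225 with DESeq2, and 0 to 169 with 1 library left out (0 without saline control mice 109 or 117 or DEX-treated control mouse 108, 169 without DEX-treated control mouse 112, 82 without saline-treated AS mouse 44). The cause was not tested. Without control, the common change of Gm13340 turned from -0.68 to 0.014. Of 108 named genes that were called, 78 were called under every alternative and 30 were lost under at least 1, among them Cd59a, Tnr, Slc22a6, Hspg2, Hey1, Rpl10-ps3 and Gm13340 when single libraries were left out. Leaving out the 4 libraries that stood apart was chosen after seeing the data, as were the alternatives for the sign checks. It gave 2466 calls, 3 genes differing between phenotypes and 63.5% with the same sign in control. No paired analysis was possible because the mouse numbers do not recur between groups. Depth limits genes with few reads, such as Lcn2 and the pseudogenes.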

Other observations

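Genes called in PS and AS together and in the 8 control libraries with the opposite sign numbered 14 of 13542 tested. They were named after their values were seen. Their adjusted p in control, by limma, ran from 0.0350 to 0.0985, with calls made under 0.1. The 4 genes that passed the adjusted F test of a difference between phenotypes were not among them. The 10 that fell in PS and AS and rose in control included Vim and Fn1, which encode vimentin and fibronectin, Mgp, a matrix inhibitor of calcification, and Adgrl4, an endothelial receptor gene. The 4 that rose in PS and AS and fell in control included Nefh and Nefm, which encode neurofilament subunits, and Scn4b, a sodium channel subunit gene.

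Of the genes the study names for the PFC after DEX, 4 did not pass the test of the common effect. The study lists them because their DEX change differed in direction between the PFC and another brain region, the dorsal raphe nucleus. It does so for single phenotypes, Itgb8 and 2900052N01Rik for PS and Ugt8a and Crocc for AS. An average over phenotypes in the PFC is therefore a different comparison. Itgb8, an integrin subunit gene, had a common change of -0.23 ± 0.10 log2 units, with -0.01, -0.48 and -0.20 in control, PS and AS. Crocc, a gene of the ciliary rootlet, had -0.15 ± 0.07, with -0.10, -0.01 and -0.33. Ugt8a, an enzyme of myelin lipid synthesis, had 0.02 ± 0.09, with -0.24, -0.09 and 0.38 in control, PS and AS. The noncoding 2900052N01Rik had 0.01 ± 0.07, with 0.32, -0.29 and 0.00.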
